A study of Homo sapiens with 32 samples.

Results

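The genes described here encode nucleolar ribosome biogenesis factors, the proteins that transcribe ribosomal RNA (rRNA) genes, modify and cut the rRNA and assemble it into the subunits of the ribosome. They were chosen as a list of 42 gene names with earlier results of these data known, and their rows were read from the deposited table of 29744 genes. By name 41 were found, and the remaining one, UTP4, stood in the table under its older symbol CIRH1A, a RefSeq synonym. The measurements came from 32 strand-specific libraries of polyadenylated RNA from LNCaP and C4-2B. LNCaP is a human prostate cancer line that responds to androgen, and C4-2B is its castration-resistant descendant. Each line gave 4 groups of 4 libraries. These were cells transfected with siRNA against MOCOS (siMOCOS) and treated with thapsigargin (TG), control siRNA (siCTRL) cells with TG, siMOCOS cells without TG, and siCTRL cells without TG. MOCOS encodes the molybdenum cofactor sulfurase, and TG blocks the calcium pump of the endoplasmic reticulum (ER) and so causes ER stress. Cells without TG had vehicle, all cells were grown in RPMI medium with serum, and the submitters call the replicates biological. No source used here gives the dose or duration of TG. The labels name 2 siRNAs against MOCOS with 2 libraries each per line and treatment, but the table's knockdown columns carry only a number, so all 4 were taken as 1 group and their numbers below are column numbers.

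Ribosome production starts in the nucleolus, where RNA polymerase I (Pol I) transcribes a long rRNA precursor with the help of UBTF and RRN3. Small nucleolar ribonucleoproteins (snoRNPs) then guide its chemical modification, box C/D particles for methylation and box H/ACA particles for pseudouridylation. Separate sets of assembly factors fold, cut and pack the small and the large subunit before export. The process is costly for a growing cell, MYC is a known activator of many of its genes, and ER stress is known to lower protein synthesis. By role the list held 6 genes of Pol I transcription, 3 of the box C/D core, 4 of the box H/ACA core, 3 abundant nucleolar proteins, 10 small subunit factors, 14 large subunit factors and 2 other nucleolar proteins, DDX21 and LYAR.

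RefSeq promoter windows of GRCh38.p14, from 250 bases before to 50 bases after a transcript start, were available for 35 of the 42 genes. They are shown for 5 members on which the results turn, with the E-box CACGTG, the core motif bound by MYC, in capitals. The motif reads the same on both strands. BYSL (chr6:41921249-41921548, plus strand) and UBTF (chr17:44220833-44221132, minus strand, 1 of 2 windows) fell with TG, GNL3 (chr3:52685782-52686081, plus strand, 1 of 2 windows) rose with TG, and FBL (chr19:39846330-39846629, minus strand) and NOP14 (chr4:2963357-2963656, minus strand) fell with the knockdown in C4-2B.
BYSL: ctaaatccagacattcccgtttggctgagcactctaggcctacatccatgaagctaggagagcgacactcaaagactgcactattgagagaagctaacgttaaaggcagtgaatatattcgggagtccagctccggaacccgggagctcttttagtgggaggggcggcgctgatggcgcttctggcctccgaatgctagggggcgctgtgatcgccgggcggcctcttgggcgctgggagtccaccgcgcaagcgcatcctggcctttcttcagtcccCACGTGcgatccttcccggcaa
UBTF: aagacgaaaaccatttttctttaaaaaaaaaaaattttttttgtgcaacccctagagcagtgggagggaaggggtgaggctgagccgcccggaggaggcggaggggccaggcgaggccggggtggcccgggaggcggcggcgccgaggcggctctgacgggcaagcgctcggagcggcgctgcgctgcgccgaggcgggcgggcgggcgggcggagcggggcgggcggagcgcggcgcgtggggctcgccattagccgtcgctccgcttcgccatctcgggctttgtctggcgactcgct
GNL3: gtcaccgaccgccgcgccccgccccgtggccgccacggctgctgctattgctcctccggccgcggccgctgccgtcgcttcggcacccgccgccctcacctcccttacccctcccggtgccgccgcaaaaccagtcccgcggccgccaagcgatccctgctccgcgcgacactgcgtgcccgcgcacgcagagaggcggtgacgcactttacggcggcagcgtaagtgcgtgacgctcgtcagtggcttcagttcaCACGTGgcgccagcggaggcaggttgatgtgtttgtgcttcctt
FBL: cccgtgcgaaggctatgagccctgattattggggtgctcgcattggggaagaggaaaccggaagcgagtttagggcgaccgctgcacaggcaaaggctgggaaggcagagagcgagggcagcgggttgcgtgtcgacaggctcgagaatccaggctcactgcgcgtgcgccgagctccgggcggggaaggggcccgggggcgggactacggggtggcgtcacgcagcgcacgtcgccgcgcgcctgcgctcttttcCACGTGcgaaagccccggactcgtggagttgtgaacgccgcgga
NOP14: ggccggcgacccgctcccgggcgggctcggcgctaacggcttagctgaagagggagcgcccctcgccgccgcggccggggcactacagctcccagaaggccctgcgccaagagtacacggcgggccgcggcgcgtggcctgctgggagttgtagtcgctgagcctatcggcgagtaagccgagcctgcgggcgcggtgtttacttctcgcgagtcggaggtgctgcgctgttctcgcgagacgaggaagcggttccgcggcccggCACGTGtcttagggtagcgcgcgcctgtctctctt
Counted from the first transcribed base as 1, the motif began at base 29 in BYSL, at base 7 in GNL3 and FBL, and at base 16 in NOP14, and neither UBTF window held it. At least 1 window with CACGTG was found for 16 of the 35 members (45.7%), against 2396 of 27305 genes with windows (8.77%). Among genes with a single window these letters were present in 11 of 25 members (44%) and in 1609 of 22114 genes (7.28%). A match to these letters is a description of the window and not a measured binding site. The 5 members shown hold the motif more often than the list does, and counts by call are given with the MYC values below.

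The deposited values were estimated counts that had been scaled by transcript length, and library totals ran between 7507226 and 27088570 counts. Levels are given as CPM, the count scaled to a common library total with TMM factors, so each is a share of the polyadenylated RNA of its library, and fewer cells or less RNA per cell cannot be told apart from it. MOCOS was between 9.76 and 19.1 CPM in siMOCOS LNCaP cells with TG, against 90.9 to 101 CPM in siCTRL cells with TG, and between 3.46 and 4.12 CPM in siMOCOS against 23.7 to 25.2 CPM in siCTRL cells without TG. In C4-2B it was between 10.5 and 18.7 CPM against 85.5 to 91.5 CPM with TG, and between 2.3 and 4.64 CPM against 29.5 to 33.6 CPM without TG. Of the epithelial markers, KRT8 was between 56.5 and 321 CPM in TG-treated and between 72.7 and 229 CPM in untreated libraries, and KRT18 between 155 and 422 CPM in TG-treated and between 158 and 262 CPM in untreated libraries. EPCAM was between 54.1 and 102 CPM in TG-treated and between 73.8 and 121 CPM in untreated libraries, and HOXB13, a prostate homeobox factor, between 57.2 and 131 CPM in TG-treated and between 188 and 271 CPM in untreated libraries, without overlap. These 4 genes are part of the marker list and do not show how its level as a whole moved with TG. The 8 immune, stromal and endothelial markers summed to between 14.6 and 34.7 CPM in TG-treated and between 5.92 and 25.3 CPM in untreated libraries, and of these PTPRC, CD3E, DCN and PECAM1 averaged at most 0.0602 CPM in any group. Knockdown columns 1 and 2 stood apart from columns 3 and 4. CDKN1A, for example, was at 286, 293, 129.7 and 109 CPM in siMOCOS and 82.7, 105, 93 and 110.2 CPM in siCTRL LNCaP cells without TG. In C4-2B CDKN1A was at 154, 143, 51.9 and 52.3 CPM in siMOCOS and 32, 45.3, 43.5 and 42.2 CPM in siCTRL cells. Knockdown results are therefore also given for each pair of columns, an alternative chosen after seeing the data.

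All 42 members passed the filter on low counts in every fit. A member was called when edgeR's quasi-likelihood test gave a Benjamini-Hochberg adjusted p under 0.05, over all genes tested in the line. TG lowered more members than it raised in both lines. In siCTRL LNCaP cells 24 members (57.1%) fell and 5 (11.9%) rose with TG, while 25.1% of the 13806 genes tested fell and 24.6% rose. The median log2 change was -0.41 over the members and -0.038 over all genes, and the TG and untreated libraries did not overlap for 30 members. Overlap was not counted over all genes, so here and below counts of members without overlap cannot be set against a share of all genes. In siCTRL C4-2B cells 18 members (42.9%) fell and 1 (2.38%) rose, against 19.3% and 21.2% of the 14127 genes tested. The number that rose was 0 without siCTRL replicate 3, 2 without siCTRL replicate 1 or siCTRL TG replicate 2, and 3 without siCTRL replicate 2. The median there was -0.33 over the members and -0.009 over all genes, and 19 members did not overlap. In both lines 17 members fell, which were 70.8% of those that fell in LNCaP and 94.4% of those in C4-2B. Each TG library had a negative member median relative to the untreated siCTRL mean of its line, between -0.53 and -0.31 in LNCaP and between -0.36 and -0.26 in C4-2B on the log2 scale.

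**Figure D1:**
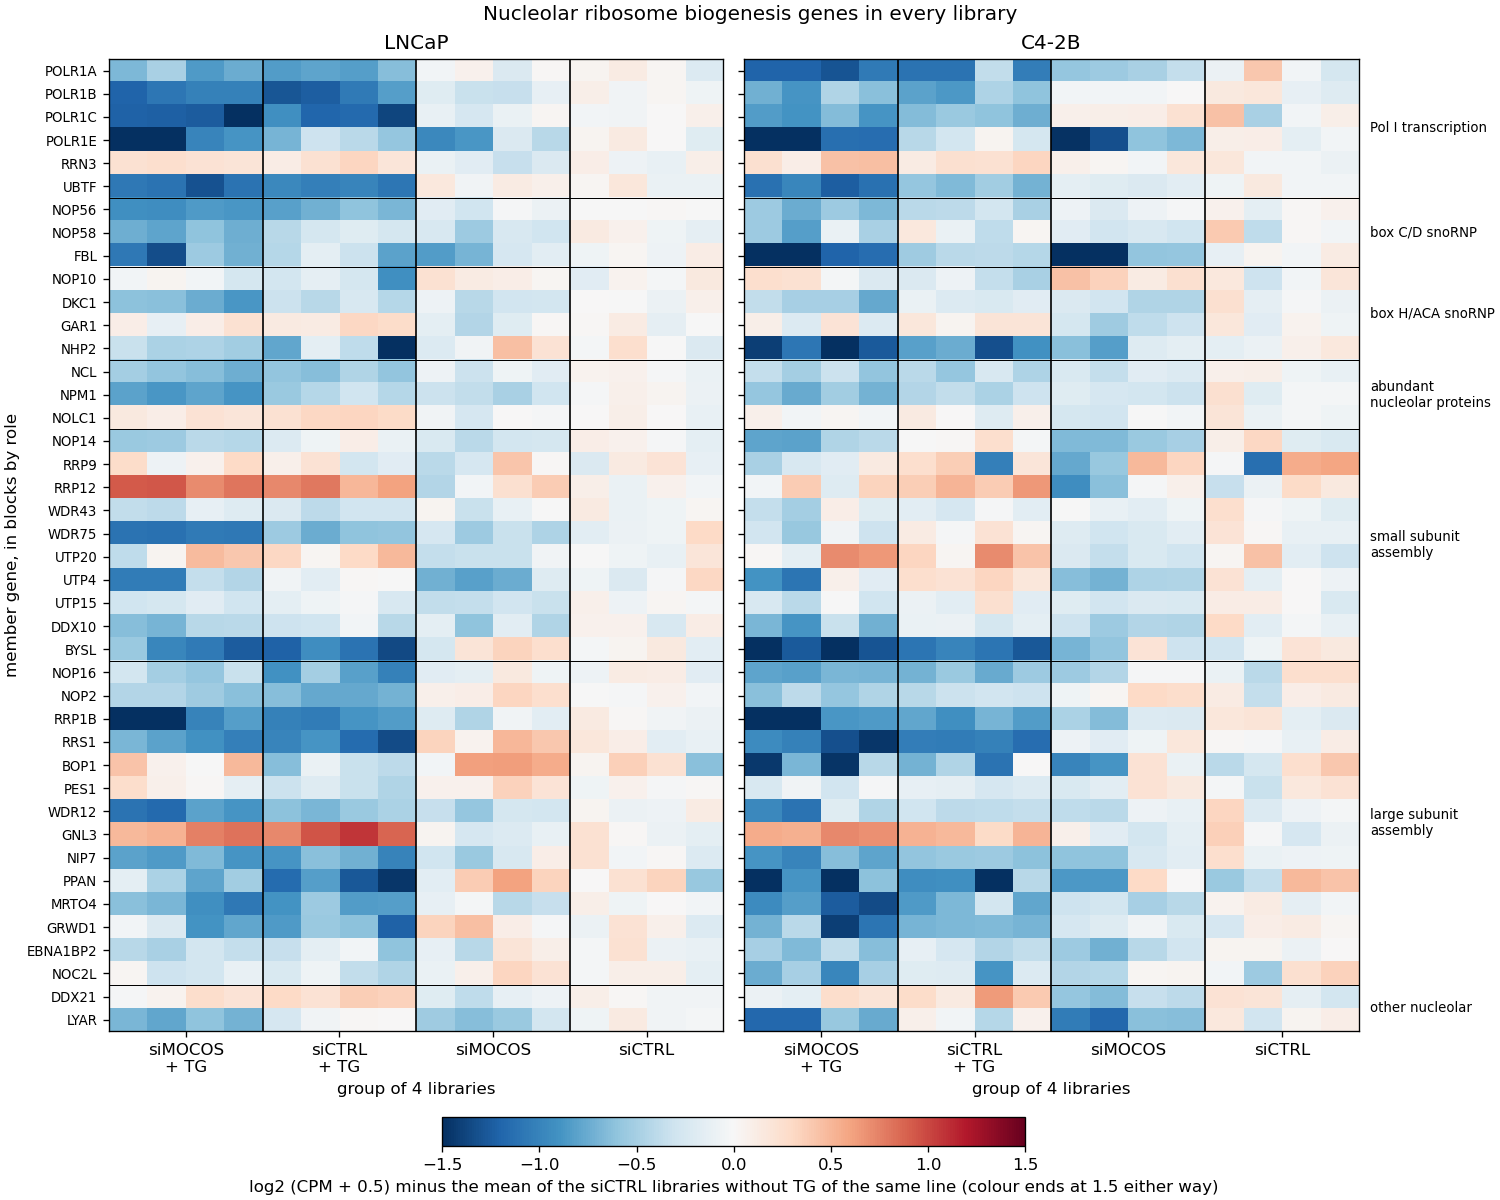
Each row is a member gene, in blocks by role, and each column a library, with LNCaP left and C4-2B right and 4 libraries in each of 4 groups per line. Colour gives log2 (CPM + 0.5) minus the mean of the untreated siCTRL libraries of the same line, and most rows are blue in the TG groups while GNL3 is red in both lines.

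Among the genes of rRNA transcription POLR1A, POLR1B, POLR1C and UBTF fell with TG in both lines. UBTF, which binds the rRNA gene promoter and holds its chromatin open, was at 83.9, 80.3, 82.8 and 77.1 CPM in TG-treated and 167, 185, 153 and 154 CPM in untreated siCTRL LNCaP cells. In C4-2B the values were 140.5, 133, 147 and 129 CPM with TG and 202, 234, 205 and 205 CPM without. The groups did not overlap in either line, and UBTF fell in LNCaP (log2 -1.02, SE 0.087, adjusted p = 3.63e-08) and in C4-2B (log2 -0.63, SE 0.0998, adjusted p = 9.53e-05). POLR1B, the second largest subunit of Pol I, was at 26.6, 27.3, 30.9 and 36.6 CPM with TG against 69.1, 63.1, 66.4 and 62.6 CPM without in LNCaP. In C4-2B POLR1B was at 32.5, 31.1, 41 and 37.2 CPM with TG against 63.2, 64, 52 and 49.7 CPM without. All TG libraries were below all untreated ones, and POLR1B fell in LNCaP (log2 -1.1, SE 0.106, adjusted p = 1.49e-07) and in C4-2B (log2 -0.7, SE 0.128, adjusted p = 0.00038). POLR1C, a subunit that Pol I shares with Pol III, was at 25.4, 21, 21.4 and 18.3 CPM with TG and 47.4, 46.9, 49 and 51.3 CPM without in LNCaP. In C4-2B POLR1C was at 24.3, 25.8, 24.9 and 22.8 CPM with TG and 52.3, 27.2, 37.1 and 40.7 CPM without. It fell in both lines without overlap (log2 -1.18, SE 0.113, adjusted p = 1.57e-07 in LNCaP, log2 -0.69, SE 0.15, adjusted p = 0.00154 in C4-2B). The untreated C4-2B libraries ran over a wide range.

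POLR1A, the largest subunit, was at 37.3, 38.7, 37.8 and 42.9 CPM with TG against 69.4, 73.3, 68.8 and 58.1 CPM without in LNCaP. In C4-2B POLR1A was at 35.8, 35.8, 60.4 and 37.8 CPM with TG against 73.2, 103, 75.5 and 64.8 CPM without. It fell in both lines (log2 -0.78, adjusted p = 6.45e-06 in LNCaP and log2 -0.9, adjusted p = 0.00056 in C4-2B), and the third TG library of C4-2B stood above the other TG libraries but below every untreated one. RRN3, the initiation factor that brings Pol I to the promoter, moved the other way, at 91.7, 99.5, 106 and 95.9 CPM with TG against 91.1, 80.3, 78.3 and 90.3 CPM without in LNCaP. The groups were separated by a narrow gap and RRN3 rose slightly (log2 0.21, SE 0.0827, adjusted p = 0.0418). The call did not hold without siCTRL replicate 2 (adjusted p = 0.127) or siCTRL replicate 3 (adjusted p = 0.135), or with a correction for GC content and length (adjusted p = 0.597). In C4-2B RRN3 was at 89.1, 97, 96.3 and 103 CPM with TG and 91.9, 79.8, 79.6 and 77.1 CPM without, the groups overlapped, and it was not called (log2 0.23, adjusted p = 0.105). RRN3 has near-identical pseudogene copies, of which RRN3P3 reached a mean of 3.15 CPM and RRN3P1 and RRN3P2 stayed below 0.5 CPM in every group. POLR1E, a subunit that takes part in initiation, was not called with TG in siCTRL cells of LNCaP (log2 -0.5, adjusted p = 0.0522) or C4-2B (log2 -0.23, adjusted p = 0.484). Its LNCaP groups did not overlap, at 29.9, 39.1, 36.5 and 32.4 CPM with TG and 49.9, 53.2, 48.9 and 42.8 CPM without, while its C4-2B groups did.

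**Figure D2:**
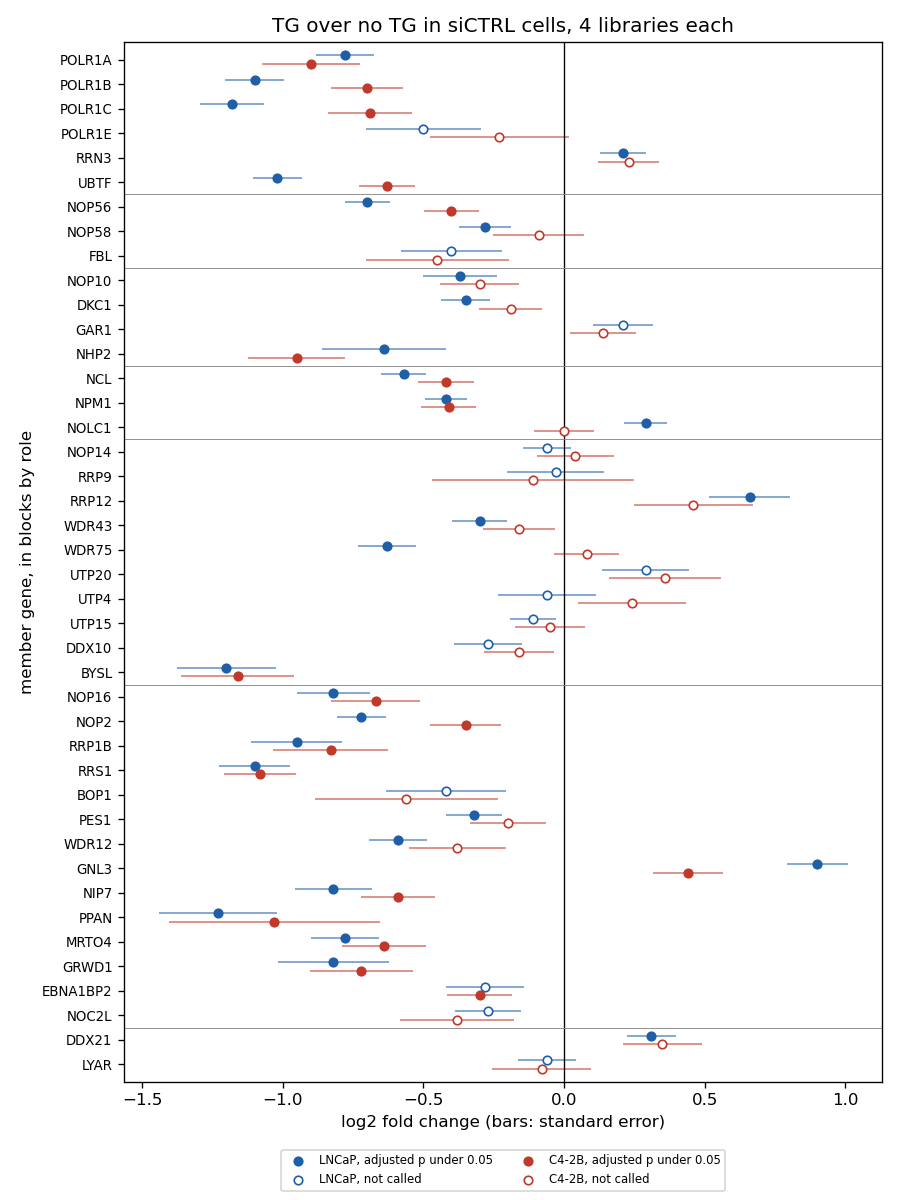
Log2 fold change with TG in siCTRL cells for each member gene, in blocks by role, with LNCaP in blue and C4-2B in red, points for the estimate and bars for 1 standard error, over 4 TG and 4 untreated libraries per line. Filled points passed the adjusted p threshold of 0.05, and BYSL, RRS1 and POLR1B lie left of 0 and GNL3 right of 0 in both lines.

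Of the 7 snoRNP core genes, NOP56, a scaffold of the box C/D particle, and NHP2, a box H/ACA core protein, fell with TG in both lines, and NOP58, DKC1 and NOP10 fell in LNCaP. NOP56 was at 108, 114, 125 and 118 CPM with TG against 189, 188, 192 and 189 CPM without in LNCaP. In C4-2B NOP56 was at 111, 112, 122 and 105 CPM with TG against 155, 133, 150.1 and 155 CPM without. The groups were apart in both lines, with a log2 change of -0.7 in LNCaP (adjusted p = 1.17e-06) and -0.4 in C4-2B (adjusted p = 0.00367). With replicate number as a term in the fit the C4-2B call of NOP56 was lost (adjusted p = 0.0544). FBL, the methyltransferase of the box C/D particle, was at 123, 149, 132 and 94.3 CPM with TG and 158, 168, 156 and 178 CPM without in LNCaP. In C4-2B FBL was at 153, 168, 169.8 and 165 CPM with TG and 204, 229, 215 and 242 CPM without. Although no TG library reached an untreated one, FBL was not called in LNCaP (log2 -0.4, adjusted p = 0.0718) or C4-2B (log2 -0.45, adjusted p = 0.173). The test shares its estimate of spread over all libraries of a line, knockdown libraries included. In C4-2B the SD of FBL was 7.42 CPM with TG and 16.4 CPM without in siCTRL cells. In siMOCOS cells it was 27.2 CPM with TG and 44.4 CPM without. The lack of a call therefore does not show that FBL was unchanged. NOP58, the partner scaffold of NOP56, fell in LNCaP (log2 -0.28, adjusted p = 0.0171), a call that did not hold without siCTRL TG replicates 1, 2 or 4, or siCTRL replicate 1 (adjusted p between 0.0612 and 0.13). In C4-2B it was at log2 -0.09 (adjusted p = 0.687).

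In the box H/ACA particle NHP2 was at 23.6, 37.1, 31.3 and 13.6 CPM with TG and 40.3, 49, 40.8 and 35.2 CPM without in LNCaP. In C4-2B NHP2 was at 35.3, 37.1, 24.8 and 33.1 CPM with TG and 56.1, 58.8, 65.5 and 69.7 CPM without. The C4-2B groups were apart (log2 -0.95, adjusted p = 0.000352). The LNCaP groups overlapped through the second TG library and the call there (log2 -0.64, adjusted p = 0.0223) was lost without siCTRL TG replicates 1 or 4, or siCTRL replicate 2 (adjusted p between 0.0693 and 0.0792). DKC1, the pseudouridine synthase, was at 212, 198, 224 and 197 CPM with TG against 267, 264, 249.8 and 279.6 CPM without in LNCaP, where it fell without overlap (log2 -0.35, SE 0.0876, adjusted p = 0.00303). In C4-2B DKC1 was at 248, 231, 227 and 235 CPM with TG against 315, 243, 261 and 249 CPM without, with 1 TG library inside the untreated range and no call (log2 -0.19, adjusted p = 0.191). NOP10 fell in LNCaP (log2 -0.37, adjusted p = 0.0263), where the groups overlapped and the call was lost without siCTRL TG replicates 1, 3 or 4, or siCTRL replicates 2 or 4 (adjusted p between 0.0552 and 0.152). GAR1 was not called in LNCaP (log2 0.21, adjusted p = 0.105) or C4-2B (log2 0.14, adjusted p = 0.343), and NOP10 was not called in C4-2B (log2 -0.3, adjusted p = 0.103).

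Both NCL and NPM1, multifunctional proteins of the nucleolar body, fell with TG in each line. NCL, nucleolin, was at 2007, 1941, 2207 and 1999 CPM with TG and 3139, 3172, 2977 and 2817 CPM without in LNCaP. In C4-2B NCL was at 2161, 1908, 2412 and 2072 CPM with TG and 3019, 3044, 2724 and 2650.1 CPM without. Its groups did not overlap in either line (log2 -0.57, adjusted p = 1.47e-05 in LNCaP and log2 -0.42, adjusted p = 0.00261 in C4-2B). With replicate number as a term in the fit the C4-2B call of NCL was lost (adjusted p = 0.0666). NPM1, nucleophosmin, was at 1627, 1779, 1952 and 1785 CPM with TG against 2367, 2517, 2457 and 2244 CPM without in LNCaP. In C4-2B NPM1 was at 1427, 1494, 1389 and 1549 CPM with TG against 2281, 1696, 1893 and 1889 CPM without. Every TG library was below every untreated library, and the log2 change was -0.42 in LNCaP (adjusted p = 0.000152) and -0.41 in C4-2B (adjusted p = 0.0031). The C4-2B call of NPM1 was also lost with replicate number as a term (adjusted p = 0.0737). NPM1 has many processed pseudogenes and the authors' counting could split reads among them. NOLC1, a chaperone of snoRNPs, went the other way in LNCaP, at 784, 829, 837 and 820 CPM with TG and 675, 713, 673 and 622 CPM without. There it rose without overlap (log2 0.29, SE 0.0763, adjusted p = 0.00439). In C4-2B, at 528, 484, 418 and 504 CPM with TG and 548, 449, 470.5 and 457 CPM without, the groups overlapped fully (log2 0, adjusted p = 0.987).

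The 10 small subunit factors had a median log2 change of -0.09 in LNCaP and 0 in C4-2B. In LNCaP 3 (30%) fell and 1 (10%) rose, against 25.1% and 24.6% of all genes. In C4-2B 1 (10%) fell and 0 rose, against 19.3% and 21.2% of all genes. The share that fell was thus near that of all genes in LNCaP and not above it in C4-2B. BYSL, bystin, which acts late in small subunit assembly, had the greatest fall of the list in C4-2B. It was at 6.3, 7.77, 6.78 and 5.63 CPM with TG and 14.9, 15.7, 16.9 and 13.6 CPM without in LNCaP. In C4-2B BYSL was at 10.2, 11, 10.3 and 8.98 CPM with TG and 18.3, 21.3, 26 and 24.9 CPM without. The untreated values were all above the TG values in both lines (log2 -1.2, SE 0.175, adjusted p = 1.89e-05 in LNCaP and log2 -1.16, SE 0.201, adjusted p = 0.000205 in C4-2B). RRP12, a factor of subunit export and late assembly, was at 56.2, 59.1, 48.1 and 52.1 CPM with TG against 36.1, 31.6, 35.5 and 32.9 CPM without in LNCaP. In C4-2B RRP12 was at 56, 61.7, 56.7 and 67.9 CPM with TG against 33.9, 40.8, 52.8 and 47.8 CPM without. The groups were apart in both lines and RRP12 rose in LNCaP (log2 0.66, SE 0.144, adjusted p = 0.000897), while the C4-2B difference was not called (log2 0.46, SE 0.211, adjusted p = 0.0892).

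WDR75, a subunit of the early UTP-A complex that links transcription to processing, was at 61.5, 53.7, 59.3 and 59.7 CPM with TG and 80.6, 85.2, 86.6 and 112 CPM without in LNCaP. It fell there without overlap (log2 -0.63, SE 0.103, adjusted p = 6.31e-05). In C4-2B it was at 72.8, 65.8, 77.5 and 68 CPM with TG and 77.3, 67.5, 61.8 and 61.5 CPM without, overlapping and not called (log2 0.08, SE 0.117, adjusted p = 0.618). WDR43, another UTP-A subunit, fell in LNCaP (log2 -0.3, adjusted p = 0.0188), a call lost without siCTRL TG replicates 2, 3 or 4, or siCTRL replicate 1 (adjusted p between 0.0643 and 0.106). The other UTP-A subunits UTP4 and UTP15, as well as UTP20, NOP14, RRP9 and DDX10, were not called in either line, with log2 changes between -0.27 (DDX10) and 0.29 (UTP20) in LNCaP and between -0.16 (DDX10) and 0.36 (UTP20) in C4-2B.

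Of the large subunit factors 10 of 14 (71.4%) fell in LNCaP, with a median of -0.75, and 9 of 14 (64.3%) in C4-2B, with a median of -0.58. For the 6 genes of rRNA transcription these were 4 (66.7%) in each line, with medians of -0.9 in LNCaP and -0.66 in C4-2B. Of all genes 25.1% fell in LNCaP and 19.3% in C4-2B. RRS1, which in yeast helps bring the smallest rRNA into the large subunit, was at 34.6, 37.2, 30.9 and 27.1 CPM with TG and 77.9, 74.1, 62.2 and 63.9 CPM without in LNCaP. In C4-2B RRS1 was at 42, 41.8, 42.8 and 39 CPM with TG and 87.9, 85.5, 80.7 and 94 CPM without. Every untreated library was above every TG library in both lines (log2 -1.1, SE 0.127, adjusted p = 1.39e-06 in LNCaP and log2 -1.08, SE 0.127, adjusted p = 4.86e-06 in C4-2B). PPAN, a relative of a yeast factor of large subunit maturation, was at 11, 13.9, 10.2 and 8.86 CPM with TG against 25.3, 29.5, 31.9 and 16.7 CPM without in LNCaP, where it fell without overlap (log2 -1.23, SE 0.211, adjusted p = 0.000102). In C4-2B PPAN was at 18.2, 18.3, 9.96 and 26.3 CPM with TG against 23.8, 27.4, 49.7 and 47.7 CPM without, the groups overlapped, and the call (log2 -1.03, SE 0.375, adjusted p = 0.0368) was lost without siCTRL TG replicates 1, 2 or 3, or siCTRL replicates 3 or 4 (adjusted p between 0.0637 and 0.117). PPAN shares its exons with the read-through gene PPAN-P2RY11, which averaged at most 0.923 CPM in any group.

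NOP2, an rRNA methyltransferase of the large subunit, was at 70.2, 63.7, 64.2 and 66.5 CPM with TG and 108, 108, 114 and 106 CPM without in LNCaP. In C4-2B NOP2 was at 92.5, 98.8, 101 and 99.4 CPM with TG and 134, 95.9, 132 and 136 CPM without. It fell in LNCaP without overlap (log2 -0.72, adjusted p = 2.07e-06), and its C4-2B call (log2 -0.35, adjusted p = 0.0346) was lost without siCTRL TG replicates 1, 2 or 4, or siCTRL replicates 1, 3 or 4 (adjusted p between 0.0557 and 0.132). PES1, BOP1 and WDR12 form the PeBoW complex of large subunit processing. PES1 was at 88.2, 95.9, 87 and 80.7 CPM with TG against 105, 116, 109 and 111 CPM without in LNCaP, where it fell (log2 -0.32, adjusted p = 0.0122), a call lost without siCTRL TG replicates 1, 3 or 4 (adjusted p between 0.0514 and 0.0771). In C4-2B PES1 was at 119, 118, 108 and 112 CPM with TG against 126, 102, 144 and 150.1 CPM without, with overlap and no call (log2 -0.2, adjusted p = 0.256). WDR12 fell in LNCaP (log2 -0.59, adjusted p = 0.000147) and was at log2 -0.38 in C4-2B (adjusted p = 0.0871), and BOP1 was not called in LNCaP (log2 -0.42, adjusted p = 0.113) or C4-2B (log2 -0.56, adjusted p = 0.175).

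Falls in both lines were also called for RRP1B, a regulator of rRNA processing and transcription (log2 -0.95 in LNCaP and -0.83 in C4-2B), for NIP7, an rRNA processing factor (-0.82 in LNCaP and -0.59 in C4-2B), and for NOP16, a known MYC target (-0.82 in LNCaP and -0.67 in C4-2B). The same held for MRTO4, which holds the place of the ribosomal stalk during assembly (-0.78 in LNCaP and -0.64 in C4-2B), and GRWD1, whose yeast relative is a ribosomal protein chaperone (-0.82 in LNCaP and -0.72 in C4-2B). Adjusted p for these 5 genes ran between 3.75e-05 and 0.00466, and the groups did not overlap. A correction for GC content and length ended the MRTO4 call in C4-2B (adjusted p = 0.0892). Together with replicate number as a term, it ended the GRWD1 call there (adjusted p = 0.0763). EBNA1BP2, which in yeast acts early on the large subunit, fell in C4-2B (log2 -0.3, adjusted p = 0.0473), a call lost without siCTRL TG replicates 2, 3 or 4, or siCTRL replicates 1, 2, 3 or 4 (adjusted p between 0.0527 and 0.123). In LNCaP it was at log2 -0.28 (adjusted p = 0.106). NOC2L was not called in either line. GNL3, nucleostemin, a nucleolar GTPase, was the one member that rose in both lines. It was at 792, 923, 1008 and 876 CPM with TG and 561, 484, 448 and 432 CPM without in LNCaP. In C4-2B GNL3 was at 508, 496, 433 and 505 CPM with TG and 453, 349, 297 and 333 CPM without. The LNCaP groups were apart (log2 0.9, SE 0.108, adjusted p = 1.98e-06). In C4-2B the third TG library lay below the highest untreated one and the call (log2 0.44, SE 0.124, adjusted p = 0.00999) was lost without siCTRL replicate 3 (adjusted p = 0.0508). DDX21, an RNA helicase that acts with Pol I and snoRNAs, was at 1080.1, 1017, 1136 and 1113 CPM with TG against 935, 889.7, 848 and 844 CPM without in LNCaP, where it rose without overlap (log2 0.31, adjusted p = 0.00729). It was not called with a correction for GC content and length (adjusted p = 0.105). In C4-2B DDX21 was at 1109.8, 1006, 1423 and 1201 CPM with TG against 1068, 1051, 834 and 755 CPM without, overlapping and not called (log2 0.35, adjusted p = 0.0587), and LYAR was called in neither line (-0.06 in LNCaP and -0.08 in C4-2B).

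**Figure D3:**
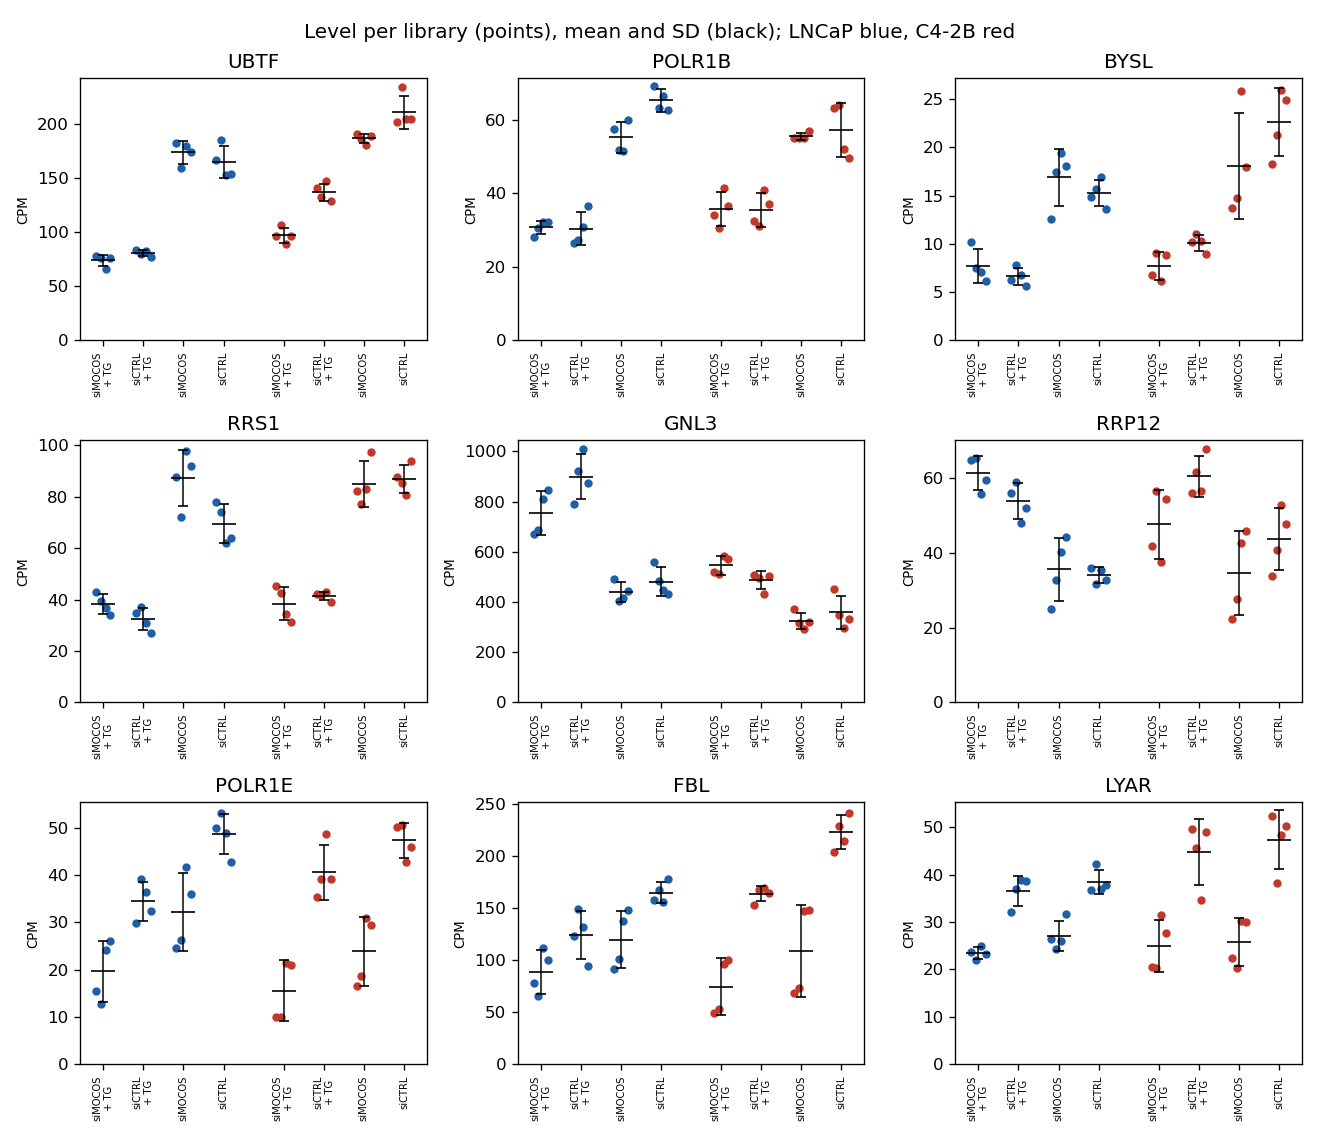
CPM of 9 members in every library, with points for libraries, black marks for the mean and SD of 4, LNCaP in blue left and C4-2B in red right, and the groups siMOCOS with TG, siCTRL with TG, siMOCOS and siCTRL in each. The means of UBTF, POLR1B, BYSL and RRS1 are lower and that of GNL3 higher in both TG groups of each line, and the means of POLR1E, FBL and LYAR are lower in siMOCOS than in siCTRL cells.

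TG was also compared within knockdown cells, which use other libraries than the siCTRL comparison. In siMOCOS LNCaP cells 21 members (50%) fell and 7 (16.7%) rose with TG, against 21.9% and 25.1% of the genes tested, with a member median of -0.36 and an all-gene median of -0.005. In siMOCOS C4-2B cells, 15 (35.7%) fell and 5 (11.9%) rose, against 17.2% and 20.7%, with medians of -0.27 and -0.025. In C4-2B 3 rose without siMOCOS replicate 2 or without siMOCOS TG replicate 1, 3 or 4. The groups did not overlap for 25 members in LNCaP and 20 in C4-2B. Members that fell in both lines numbered 14, and those that rose in both were DDX21, GAR1, GNL3, RRN3 and UTP20, though several of these calls rest on the settings given below. Of the C4-2B falls, GRWD1, NHP2, NIP7, NOP16, NOP2 and POLR1A were not called without columns 3 and 4 (adjusted p between 0.0555 and 0.333). NPM1 was not called there without columns 1 and 2 (adjusted p = 0.122). In LNCaP the falls of NOP16 (adjusted p = 0.325) and PPAN (adjusted p = 0.217) were lost without columns 3 and 4. UBTF was at 77.7, 75.8, 66.2 and 75.8 CPM in siMOCOS LNCaP cells with TG against 183, 159, 179.7 and 174 CPM without (log2 -1.18, adjusted p = 6.41e-09). In C4-2B UBTF was at 96.7, 107, 89.4 and 96.5 CPM with TG against 191, 186, 181 and 189 CPM without (log2 -0.91, adjusted p = 2.28e-06). RRS1 was at 42.9, 39.5, 36.6 and 33.9 CPM with TG against 87.6, 72.1, 97.9 and 92 CPM without in LNCaP (log2 -1.15, adjusted p = 8.6e-07). In C4-2B RRS1 was at 45.1, 42.6, 34.5 and 31.4 CPM with TG against 82.4, 77.1, 82.9 and 97.6 CPM without (log2 -1.11, adjusted p = 3.31e-06). In neither gene did the treatments overlap. BYSL (log2 -1.08 in LNCaP and -1.19 in C4-2B) and POLR1C (-1.16 in LNCaP and -0.92 in C4-2B) also fell without overlap.

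GNL3 was at 669, 687, 811 and 845 CPM with TG against 492, 403, 414 and 444 CPM without in siMOCOS LNCaP cells. In C4-2B GNL3 was at 519, 511, 585 and 571 CPM with TG against 371, 315, 291 and 320 CPM without, rising without overlap in both (log2 0.83, adjusted p = 5.73e-06 in LNCaP and log2 0.79, adjusted p = 9.55e-05 in C4-2B). RRP12 rose in siMOCOS LNCaP cells, at 64.8, 65.5, 55.8 and 59.5 CPM with TG and 24.9, 32.9, 40.2 and 44.3 CPM without (log2 0.84, adjusted p = 0.000111; columns 3 and 4 alone gave log2 0.47, adjusted p = 0.00569), and was not called in C4-2B (log2 0.5, adjusted p = 0.0728). UTP20, a large protein of the small subunit processome, was at 57.2, 76.9, 104 and 99.1 CPM with TG against 58.3, 59.1, 59.5 and 72 CPM without in LNCaP. In C4-2B UTP20 was at 68.4, 60.5, 110.2 and 106 CPM with TG against 57.9, 52.6, 57.5 and 54.4 CPM without. Columns 3 and 4 of the TG groups were above columns 1 and 2 in both lines. The UTP20 calls (log2 0.49, adjusted p = 0.0156 in LNCaP and log2 0.66, adjusted p = 0.0145 in C4-2B) were lost without columns 3 and 4 (adjusted p = 0.31 in LNCaP and 0.458 in C4-2B), in LNCaP without siMOCOS TG replicate 3 (adjusted p = 0.0841) or siMOCOS TG replicate 4 (adjusted p = 0.0718), and in C4-2B without siMOCOS TG replicate 3 (adjusted p = 0.0573) or siMOCOS TG replicate 4 (adjusted p = 0.0536) or with a correction for GC content and length (adjusted p = 0.0929). With all 32 libraries in 1 fit the LNCaP call was lost too (adjusted p = 0.0572). RRN3 was at 99.4, 101, 98.4 and 97.2 CPM with TG and 79.3, 75.3, 66.7 and 72.7 CPM without in LNCaP, where it rose without overlap (log2 0.48, adjusted p = 0.00013). Its call in C4-2B (log2 0.29, adjusted p = 0.0406) was lost without siMOCOS TG replicates 1, 3 or 4, or siMOCOS replicates 1, 2 or 3 (adjusted p between 0.0523 and 0.125). There the change was log2 0.06 with a correction for GC content and length (adjusted p = 0.66), log2 0.16 without columns 3 and 4 (adjusted p = 0.381), and not called without the filter on low counts (adjusted p = 0.0812). GAR1 was at 60.1, 51.6, 60.2 and 65.7 CPM with TG against 50.6, 41.4, 49.4 and 57 CPM without in LNCaP. In C4-2B GAR1 was at 62, 50.8, 67.7 and 50.5 CPM with TG against 48.8, 40.2, 44.9 and 47.1 CPM without. Its calls (log2 0.31, adjusted p = 0.0242 in LNCaP and log2 0.38, adjusted p = 0.0155 in C4-2B) were lost in LNCaP without siMOCOS TG replicates 1, 3 or 4, or siMOCOS replicate 2 (adjusted p between 0.0575 and 0.104) and in C4-2B without siMOCOS TG replicates 1 or 3, or siMOCOS replicate 2 (adjusted p between 0.0511 and 0.0626). They were also lost with either pair of columns alone and with the correction for GC content and length (adjusted p = 0.0638 in LNCaP and 0.0521 in C4-2B). With the pair of columns as a term in the fit, an alternative chosen after seeing the data, 24 members fell and 7 rose in LNCaP, and 18 fell and 6 rose in C4-2B. No share of all genes was taken from this fit, so the gain in calls does not set the members apart. FBL was then lower with TG in LNCaP (log2 -0.38, adjusted p = 0.00713) and in C4-2B (log2 -0.5, adjusted p = 0.000268), where the fit without that term did not call it (log2 -0.38, adjusted p = 0.0941 in LNCaP and log2 -0.52, adjusted p = 0.12 in C4-2B). POLR1E was lower in C4-2B (log2 -0.62, adjusted p = 0.000413), where it was otherwise not called (log2 -0.58, adjusted p = 0.0775). The other calls gained were EBNA1BP2 (adjusted p = 0.0498) and NHP2 (adjusted p = 0.0439), lower in LNCaP, and WDR12 (adjusted p = 0.0103), lower, and RRP12 (adjusted p = 0.0286), higher in C4-2B.

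With all 4 columns as 1 group, edgeR called members lower and none higher with knockdown of MOCOS without TG. This comparison shares the untreated siCTRL libraries with the TG comparison above. By column 1 to 4, the member median relative to the siCTRL mean was -0.16, -0.31, -0.12 and -0.06 in LNCaP. In C4-2B it was -0.29, -0.38, -0.2 and -0.16, on the log2 scale. In LNCaP 10 members (23.8%) fell and 0 rose in siMOCOS against siCTRL cells, while 9.73% of the genes tested fell and 6% rose. The member median was -0.17 against -0.022 over all genes, and the groups did not overlap for 13 members. In C4-2B 12 members (28.6%) fell and 0 rose, against 8.14% and 9.09% of the genes tested, with medians of -0.28 and 0.003 and no overlap for 16 members. With edgeR no member was higher at an unadjusted p under 0.05 in C4-2B, and 1 was in LNCaP. DESeq2 called 1 member higher in LNCaP and 0 in C4-2B, and limma voom called 0 in both. With 1 library left out, 4 to 10 members fell in LNCaP (4 without siMOCOS replicate 2, and 6 without siCTRL replicate 1 or 4) and 5 to 10 in C4-2B (5 without siCTRL replicate 1 or siMOCOS replicate 2, and 7 without siCTRL replicate 3). In both lines DKC1, LYAR, NOP14, POLR1E and UTP4 fell, which are 50% of the LNCaP and 41.7% of the C4-2B falls.

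Against the same controls, columns 1 and 2 alone gave 12 falls and 0 rises among the members in LNCaP, where 12.6% of the genes tested fell and 11.3% rose, and 17 falls and 0 rises in C4-2B, where 15% fell and 15.6% rose. Columns 3 and 4 alone gave 6 falls and 4 rises in LNCaP, where 11% of the genes tested fell and 8.93% rose, and 7 falls and 0 rises in C4-2B, where 7.87% fell and 7.07% rose. Out of 42 members, the LNCaP falls and rises from columns 3 and 4 were near the shares of all genes. Columns 1 and 2 thus gave more calls over all genes as well. In both lines the cycling markers, 12 proliferation genes such as MKI67, also fell with the knockdown, 11 of 12 in LNCaP and 12 of 12 in C4-2B. Their summed level was between 366 and 543 CPM in siMOCOS and between 1087 and 1161 CPM in siCTRL LNCaP cells, and between 415 and 429 CPM in siMOCOS and between 1373 and 1518 CPM in siCTRL C4-2B cells. With TG they fell with the knockdown too, 11 of 12 in LNCaP and 12 of 12 in C4-2B. Their part in the members' falls was not tested.

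**Figure D4:**
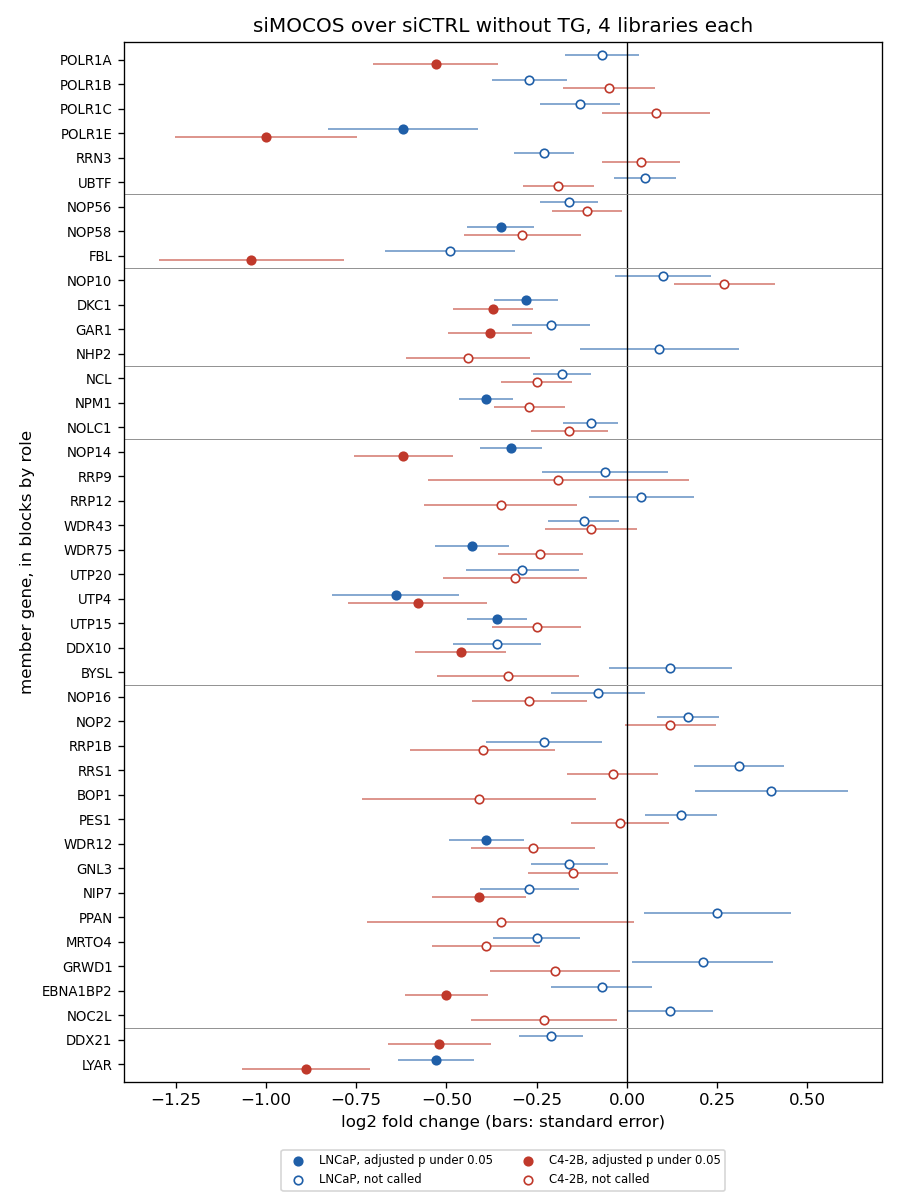
Log2 fold change with MOCOS knockdown without TG for each member gene, in blocks by role, with LNCaP in blue and C4-2B in red, points for the estimate and bars for 1 standard error, over 4 siMOCOS and 4 siCTRL libraries per line. Filled points passed the adjusted p threshold of 0.05, and all of them lie left of 0.

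Among the genes of rRNA transcription, POLR1E fell with the knockdown in both lines, with and without TG. Without TG it was at 24.5, 26.2, 41.8 and 36.1 CPM in siMOCOS and 49.9, 53.2, 48.9 and 42.8 CPM in siCTRL LNCaP cells. In C4-2B POLR1E was at 16.6, 18.7, 30.9 and 29.4 CPM in siMOCOS and 50.2, 50.7, 42.8 and 46 CPM in siCTRL cells. All knockdown libraries were below all control libraries, columns 1 and 2 most so. In C4-2B it fell by the test (log2 -1, SE 0.251, adjusted p = 0.0103). In LNCaP the call (log2 -0.62, SE 0.207, adjusted p = 0.0486) was lost without siMOCOS replicates 1, 2 or 4, or siCTRL replicates 1, 2, 3 or 4 (adjusted p between 0.0503 and 0.143). From columns 3 and 4 alone POLR1E was at log2 -0.29 in LNCaP (adjusted p = 0.118) and log2 -0.66 in C4-2B (adjusted p = 0.00776). With TG it was at 15.5, 12.8, 24.2 and 26.1 CPM in siMOCOS and 29.9, 39.1, 36.5 and 32.4 CPM in siCTRL LNCaP cells. In C4-2B POLR1E was at 10.1, 9.92, 21.4 and 21.1 CPM in siMOCOS and 35.3, 39.1, 48.8 and 39.2 CPM in siCTRL cells. The groups were again apart, and POLR1E fell in LNCaP (log2 -0.79, SE 0.206, adjusted p = 0.0119) and C4-2B (log2 -1.35, SE 0.254, adjusted p = 0.00111). Columns 1 and 2 alone gave log2 -1.3 in LNCaP (adjusted p = 4.34e-06) and columns 3 and 4 alone log2 -0.46 (adjusted p = 0.0189). POLR1A fell in untreated C4-2B cells (log2 -0.53, adjusted p = 0.0437), at 52.2, 53.4, 55.4 and 60.6 CPM in siMOCOS and 73.2, 103, 75.5 and 64.8 CPM in siCTRL cells. This call was lost without siMOCOS replicates 1, 2, 3 or 4, or siCTRL replicates 1, 2 or 3 (adjusted p between 0.0537 and 0.158), and from either pair of columns alone (adjusted p = 0.0672 for columns 1 and 2 and 0.214 for columns 3 and 4). In LNCaP POLR1A was at log2 -0.07 (adjusted p = 0.682), and UBTF fell with the knockdown in TG-treated C4-2B cells (log2 -0.47, SE 0.0997, adjusted p = 0.00323) and was not called in LNCaP (log2 -0.11, adjusted p = 0.382).

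FBL was lower in every knockdown library of C4-2B. Without TG it was at 68.3, 73.4, 147 and 148 CPM in siMOCOS and 204, 229, 215 and 242 CPM in siCTRL cells, and with TG at 49, 53.5, 96 and 100.3 CPM in siMOCOS and 153, 168, 169.8 and 165 CPM in siCTRL cells. Columns 1 and 2 were the lowest, and FBL fell in untreated (log2 -1.04, SE 0.257, adjusted p = 0.00913) and in TG-treated cells (log2 -1.11, SE 0.257, adjusted p = 0.00594). From columns 3 and 4 alone FBL was at log2 -0.6 without TG (adjusted p = 0.00303) and log2 -0.72 with TG (adjusted p = 0.000778), and columns 1 and 2 alone gave log2 -1.64 without TG (adjusted p = 1.34e-06). In LNCaP FBL was at 91.6, 101, 138 and 148 CPM in siMOCOS and 158, 168, 156 and 178 CPM in siCTRL cells without TG, apart but not called (log2 -0.49, SE 0.181, adjusted p = 0.0777). It was at 77.9, 65.3, 112 and 99.9 CPM in siMOCOS and 123, 149, 132 and 94.3 CPM in siCTRL cells with TG, where the groups overlapped (log2 -0.46, adjusted p = 0.0746). NOP58 fell in LNCaP without TG (log2 -0.35, adjusted p = 0.0153), a call lost without siCTRL replicate 1 (adjusted p = 0.0555) or siMOCOS replicate 2 (adjusted p = 0.0609), or columns 1 and 2 (adjusted p = 0.0852), and in TG-treated cells (log2 -0.41, adjusted p = 0.0045), a call lost with a correction for GC content and length (adjusted p = 0.0884). DKC1 was at 252, 198, 217 and 218 CPM in siMOCOS and 267, 264, 249.8 and 279.6 CPM in siCTRL LNCaP cells. In C4-2B DKC1 was at 228, 217, 195 and 194 CPM in siMOCOS and 315, 243, 261 and 249 CPM in siCTRL cells. The LNCaP groups overlapped, and the calls (log2 -0.28, adjusted p = 0.0367 in LNCaP and log2 -0.37, adjusted p = 0.0291 in C4-2B) were lost in LNCaP without siMOCOS replicates 2, 3 or 4, or siCTRL replicates 1, 2 or 4 (adjusted p between 0.0598 and 0.122) and in C4-2B without siMOCOS replicates 2, 3 or 4, or siCTRL replicates 1 or 3 (adjusted p between 0.0504 and 0.0938). From columns 1 and 2 alone neither was called (adjusted p = 0.134 in LNCaP and 0.108 in C4-2B). In TG-treated LNCaP cells DKC1 fell from columns 1 and 2 alone (log2 -0.29, adjusted p = 0.0324) and from columns 3 and 4 alone (log2 -0.46, adjusted p = 0.00141). That call was not made under every alternative. NPM1 was at 1918, 1847, 1707 and 1952 CPM in siMOCOS and 2367, 2517, 2457 and 2244 CPM in siCTRL LNCaP cells without TG, where it fell without overlap (log2 -0.39, SE 0.0749, adjusted p = 0.0018). In C4-2B NPM1 was at 1706, 1621, 1592 and 1541 CPM in siMOCOS and 2281, 1696, 1893 and 1889 CPM in siCTRL cells, where 1 knockdown library overlapped and it was not called (log2 -0.27, adjusted p = 0.0625). With TG NPM1 fell in LNCaP from columns 1 and 2 alone (log2 -0.43, adjusted p = 0.00212) and from columns 3 and 4 alone (log2 -0.42, adjusted p = 0.00689), though it was not called under every alternative.

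LYAR, a nucleolar zinc finger protein that promotes rRNA processing, fell in all 4 knockdown comparisons. Without TG it was at 26.4, 24.4, 26 and 31.7 CPM in siMOCOS and 36.7, 42.2, 37 and 37.7 CPM in siCTRL LNCaP cells. In C4-2B LYAR was at 22.4, 20.4, 30.2 and 29.9 CPM in siMOCOS and 52.4, 38.3, 48.3 and 50.2 CPM in siCTRL cells. With TG it was at 23.6, 22, 25 and 23.3 CPM in siMOCOS and 32, 36.9, 38.9 and 38.6 CPM in siCTRL LNCaP cells. In C4-2B LYAR was at 20.5, 20.4, 31.5 and 27.7 CPM in siMOCOS and 49.7, 45.6, 34.7 and 49 CPM in siCTRL cells. No knockdown library reached a control library, and the log2 change without TG was -0.53 in LNCaP (adjusted p = 0.00237) and -0.89 in C4-2B (adjusted p = 0.00188). With TG it was -0.62 in LNCaP (adjusted p = 0.000431) and -0.81 in C4-2B (adjusted p = 0.00364). DDX21 fell in untreated C4-2B cells (log2 -0.52, adjusted p = 0.0182), at 611, 582, 723 and 697 CPM in siMOCOS and 1068, 1051, 834 and 755 CPM in siCTRL cells, a call lost without siMOCOS replicates 1 or 2, or siCTRL replicates 1 or 2 (adjusted p between 0.0571 and 0.0629), or columns 1 and 2 (adjusted p = 0.138), and was not called in the other 3 knockdown comparisons.

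Among the small subunit factors, NOP14 and UTP4 fell with the knockdown in both lines. NOP14, a scaffold of the small subunit processome, was at 160.4, 142, 155 and 157 CPM in siMOCOS and 201, 196, 186 and 170.3 CPM in siCTRL LNCaP cells without TG. In C4-2B NOP14 was at 104, 103, 112 and 117 CPM in siMOCOS and 175, 204, 145 and 140.3 CPM in siCTRL cells. The groups were apart in both lines (log2 -0.32, adjusted p = 0.0183 in LNCaP and log2 -0.62, adjusted p = 0.00414 in C4-2B), and the LNCaP call was lost without siCTRL replicate 1 (adjusted p = 0.0591) or siMOCOS replicate 2 (adjusted p = 0.0685), or columns 1 and 2 (adjusted p = 0.0878). With TG NOP14 fell as well (log2 -0.4, adjusted p = 0.00351 in LNCaP and log2 -0.64, adjusted p = 0.00328 in C4-2B), though in C4-2B not without columns 1 and 2 (adjusted p = 0.0565). The antisense gene NOP14-AS1 had means of at most 11 CPM, and the counting is not stated to use strand. UTP4, cirhin, was at 41.6, 39.2, 41 and 60.1 CPM in siMOCOS and 65.9, 59.2, 68 and 85.8 CPM in siCTRL LNCaP cells without TG. In C4-2B UTP4 was at 45.7, 43.2, 51.6 and 52.1 CPM in siMOCOS and 82.6, 64, 71.7 and 67.7 CPM in siCTRL cells. The fourth LNCaP column overlapped the controls, and the calls (log2 -0.64, adjusted p = 0.0197 in LNCaP and log2 -0.58, adjusted p = 0.0469 in C4-2B) were lost in LNCaP without siMOCOS replicates 2 or 3, or siCTRL replicate 4 (adjusted p between 0.054 and 0.0762), or columns 1 and 2 (adjusted p = 0.0533), and in C4-2B without siMOCOS replicates 1, 2, 3 or 4, or siCTRL replicates 1, 2, 3 or 4 (adjusted p between 0.0596 and 0.122). With TG UTP4 was at 33, 33.1, 54 and 51 CPM in siMOCOS and 66.5, 62, 70.1 and 68.8 CPM in siCTRL LNCaP cells. In C4-2B UTP4 was at 38, 33, 74.9 and 63.3 CPM in siMOCOS and 84.9, 82.9, 89.5 and 80.4 CPM in siCTRL cells, with columns 1 and 2 lowest in both lines. It was called with TG in LNCaP (log2 -0.62, adjusted p = 0.0172) and in C4-2B (log2 -0.67, adjusted p = 0.0235). The C4-2B call was lost without siMOCOS TG replicates 1 or 2, or siCTRL TG replicates 1, 2 or 3 (adjusted p between 0.0511 and 0.0721), and both were lost without columns 1 and 2 (adjusted p = 0.113 in LNCaP and 0.163 in C4-2B). Columns 1 and 2 alone gave log2 -1.03 in LNCaP (adjusted p = 1.88e-05) and log2 -1.22 in C4-2B (adjusted p = 8.09e-06).

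WDR75 fell with the knockdown in LNCaP, at 75.4, 61.6, 71.5 and 65.6 CPM in siMOCOS and 80.6, 85.2, 86.6 and 112 CPM in siCTRL cells without TG (log2 -0.43, SE 0.103, adjusted p = 0.00866). In TG-treated LNCaP cells it was at 41.6, 41.1, 42.9 and 42.7 CPM in siMOCOS and 61.5, 53.7, 59.3 and 59.7 CPM in siCTRL cells and fell again (log2 -0.45, SE 0.103, adjusted p = 0.00504), and in neither case did the groups overlap. A correction for GC content and length ended both calls (adjusted p = 0.0889 without and 0.0868 with TG). In TG-treated C4-2B cells it was called as well (log2 -0.36, adjusted p = 0.0434), and the call was lost without siMOCOS TG replicates 1, 2 or 4, or siCTRL TG replicates 1, 2, 3 or 4 (adjusted p between 0.064 and 0.112), or columns 1 and 2 (adjusted p = 0.232). UTP15 fell in untreated LNCaP cells (log2 -0.36, adjusted p = 0.0069), a call that the same correction ended (adjusted p = 0.139). DDX10, a helicase of the small subunit processome, fell in untreated C4-2B cells (log2 -0.46, adjusted p = 0.0173), a call lost without siCTRL replicate 1 (adjusted p = 0.0632) or siMOCOS replicate 2 (adjusted p = 0.0571). It also fell there with TG (log2 -0.47, adjusted p = 0.0141), a call lost without siCTRL TG replicate 1 (adjusted p = 0.05) or siCTRL TG replicate 2 (adjusted p = 0.0512), or columns 1 and 2 (adjusted p = 0.117).

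Of the 14 large subunit factors 1 (7.14%) fell in LNCaP and 2 (14.3%) in C4-2B with the knockdown without TG, against 9.73% of all genes in LNCaP and 8.14% in C4-2B. EBNA1BP2 fell in untreated C4-2B cells (log2 -0.5, adjusted p = 0.00633), and columns 3 and 4 alone gave no call (adjusted p = 0.0741). NIP7 fell there as well (log2 -0.41, adjusted p = 0.0399), a call lost without siMOCOS replicates 1 or 2, or siCTRL replicates 1, 3 or 4 (adjusted p between 0.0598 and 0.133), and at log2 -0.21 without columns 1 and 2 (adjusted p = 0.307). WDR12 fell in LNCaP without TG (log2 -0.39, adjusted p = 0.0168), a call lost without siCTRL replicate 4 (adjusted p = 0.0546) or siMOCOS replicate 2 (adjusted p = 0.0667), or columns 1 and 2 (adjusted p = 0.0724), and in TG-treated cells (log2 -0.38, adjusted p = 0.0155), a call lost without columns 1 and 2 (adjusted p = 0.0543), while columns 1 and 2 alone gave log2 -0.57 (adjusted p = 0.000386). Of the box H/ACA genes, GAR1 fell in untreated C4-2B cells (log2 -0.38, adjusted p = 0.0305), a call lost without siMOCOS replicates 2 or 3, or siCTRL replicates 1, 3 or 4 (adjusted p between 0.0611 and 0.102), or columns 1 and 2 (adjusted p = 0.0958).

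With TG, the knockdown lowered 9 members (21.4%) and raised 4 (9.52%) in LNCaP, against 10.2% and 11.7% of the genes tested, with a member median of -0.09 and an all-gene median of 0.012. In C4-2B it lowered 8 (19%) and raised 0, against 7.6% and 9.21%, with medians of -0.23 and 0.014. No overlap was found for 15 members in LNCaP and 13 in C4-2B, and in C4-2B 1 member was higher with edgeR at an unadjusted p under 0.05 and 0 by DESeq2 or limma voom. In C4-2B 5 members fell without siCTRL TG replicate 1 or 2, and 1 rose without siMOCOS TG replicate 4. LYAR, NOP14, POLR1E, UTP4 and WDR75 fell in both lines. From columns 1 and 2 alone, 16 members fell and 5 rose in LNCaP, against 22.6% and 16.6% of the genes tested, and 13 fell and 1 rose in C4-2B, against 16.5% and 14.2%. From columns 3 and 4 alone, 7 fell and 0 rose in each line, against 9.96% and 6.86% of the genes tested in LNCaP and 8.09% and 8.93% in C4-2B. The 4 rises in LNCaP were the large subunit factors BOP1, NOP16, PES1 and PPAN. None was called without columns 1 and 2, and a correction for GC content and length ended the calls of BOP1 (adjusted p = 0.673) and PPAN (adjusted p = 0.0806). PPAN was at 22.7, 17.9, 14.3 and 17.3 CPM in siMOCOS and 11, 13.9, 10.2 and 8.86 CPM in siCTRL cells, and BOP1 at 14.6, 11.3, 10.6 and 15.2 CPM in siMOCOS and 6.74, 10, 8.38 and 8.08 CPM in siCTRL cells. PES1 was at 133, 116, 112 and 100.4 CPM in siMOCOS and 88.2, 95.9, 87 and 80.7 CPM in siCTRL cells, and NOP16 at 22.6, 19.2, 18.2 and 21.7 CPM in siMOCOS and 14.4, 19.3, 15.5 and 13.4 CPM in siCTRL cells. The groups did not overlap for PPAN, BOP1 and PES1 but did for NOP16, and column 1 was the highest knockdown library for PPAN, PES1 and NOP16. The PES1 call (log2 0.41, adjusted p = 0.00689) held with any single library left out. The PPAN call (log2 0.74, adjusted p = 0.0179) was lost without siMOCOS TG replicate 1, or siCTRL TG replicates 3 or 4 (adjusted p between 0.065 and 0.0819). That of BOP1 (log2 0.66, adjusted p = 0.0324) was lost without siMOCOS TG replicates 1 or 4, or siCTRL TG replicates 1, 3 or 4 (adjusted p between 0.087 and 0.11), or columns 3 and 4 (adjusted p = 0.0606), and that of NOP16 (log2 0.41, adjusted p = 0.0335) without siMOCOS TG replicates 1, 2 or 4, or siCTRL TG replicates 1, 3 or 4 (adjusted p between 0.0608 and 0.137).

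Whether TG and the knockdown acted together beyond their separate effects was tested as an interaction, the log2 knockdown effect in TG-treated cells minus the one in untreated cells. With edgeR's quasi-likelihood test no member was called in either line, while 0.00724% of all genes were called in LNCaP and 0.0708% in C4-2B. DESeq2, limma voom and edgeR with the pair of columns as a term also called no member, and at an unadjusted p under 0.05 there were 2 members in LNCaP and 0 in C4-2B. The member median of the interaction was 0.08 in LNCaP and 0.05 in C4-2B, against 0.049 and 0.025 over all genes. Estimates ran between POLR1E (log2 -0.16, SE 0.291, adjusted p = 0.971) and NOP16 (log2 0.49, SE 0.184, adjusted p = 0.587) in LNCaP, and between POLR1E (log2 -0.35, SE 0.353, adjusted p = 1) and GNL3 (log2 0.35, SE 0.175, adjusted p = 0.754) in C4-2B. In the cells that had both, each library's member median relative to untreated siCTRL cells was between -0.58 and -0.53 in LNCaP and between -0.75 and -0.48 in C4-2B.

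Between untreated siCTRL cells the lines differed in 12 members, from a fit of all 32 libraries and 14628 genes. In LNCaP relative to C4-2B 5 (11.9%) were higher and 7 (16.7%) lower, against 21.1% and 20.1% of all genes. The members' shares of calls were thus not above those of all genes, and 11 members did not overlap. NOLC1 was at 675, 713, 673 and 622 CPM in LNCaP and 548, 449, 470.5 and 457 CPM in C4-2B, all LNCaP libraries being above all C4-2B libraries (log2 0.48, SE 0.0869, adjusted p = 5.5e-05). WDR75 (log2 0.44, SE 0.108, adjusted p = 0.00158) and NOP56 (log2 0.35, adjusted p = 0.000767) were higher in LNCaP without overlap, and GNL3 (log2 0.43, adjusted p = 0.00406) and NPM1 (log2 0.3, adjusted p = 0.00394) with overlap. BOP1 was at 11.1, 13.9, 12.7 and 6.75 CPM in LNCaP and 15.5, 17.1, 24.7 and 27.5 CPM in C4-2B, all LNCaP libraries being below all C4-2B libraries (log2 -0.93, adjusted p = 0.0105), and the call was lost without LNCaP siCTRL replicate 4 (adjusted p = 0.0513). NHP2 (log2 -0.6, adjusted p = 0.0191), BYSL (log2 -0.57, adjusted p = 0.0132), NOP16 (log2 -0.49, adjusted p = 0.00646), EBNA1BP2 (log2 -0.39, adjusted p = 0.0148), UBTF (log2 -0.36, SE 0.0833, adjusted p = 0.000994) and RRS1 (log2 -0.32, adjusted p = 0.0325) were lower in LNCaP. Leaving out 1 library ended the calls of NHP2, without C4-2B siCTRL replicate 4 (adjusted p = 0.0557) or LNCaP siCTRL replicate 4 (adjusted p = 0.0657), of EBNA1BP2, without LNCaP siCTRL replicate 4 (adjusted p = 0.0509), and of RRS1, without LNCaP siCTRL replicates 3 or 4, or C4-2B siCTRL replicates 1 or 4 (adjusted p between 0.0559 and 0.104). The count of members lower in LNCaP was 13 without C4-2B siCTRL replicate 2 and 3 without LNCaP siCTRL replicate 4.

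The responses of the lines were compared in the same fit. The TG response of siCTRL cells differed for 1 member, WDR75, with a difference of -0.72 in log2 change, LNCaP minus C4-2B (SE 0.152, adjusted p = 0.0149), while 0.431% of all genes were called lower and 0.417% higher. No member was called higher by edgeR, DESeq2 or limma voom, and 2 were at an unadjusted p under 0.05 with edgeR. WDR75 fell in LNCaP and was not called in C4-2B, and the difference was not called without C4-2B siCTRL replicate 3 (adjusted p = 0.056). The next greatest differences did not pass the test, POLR1C at -0.49 (adjusted p = 0.296), GNL3 at 0.46 (adjusted p = 0.258), POLR1B at -0.41 (adjusted p = 0.329) and UBTF at -0.4 (adjusted p = 0.126). Over the 42 members the log2 changes with TG in siCTRL cells had a Pearson r of 0.9 and a Spearman rho of 0.91 between the lines, which share no library, and 38 had the same sign. For the knockdown without TG these were 0.51, 0.43 and 30 members. Both are descriptions across genes, which are not independent replicates. No member differed between the lines in its knockdown response without TG, with 0.157% of all genes called, or with TG, with 0.431% called. At an unadjusted p under 0.05 these were 5 and 11 members, DESeq2 and limma voom called 0, and BOP1 had the greatest difference in both (log2 0.82, adjusted p = 0.424, and log2 1.07, adjusted p = 0.204).

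Other genes of the same pathway were read from lists written from general knowledge but with earlier results of these data known, so they are no independent check. The examples named are among the 3 per list and direction with the smallest adjusted p. Of 17 further genes of Pol I and its factors, 7 fell (41.2%) and 3 rose (17.6%) with TG in siCTRL LNCaP cells, against 25.1% and 24.6% of all genes, and the same numbers in C4-2B, against 19.3% and 21.2% of all genes. POLR1G, a Pol I subunit listed in the table as CD3EAP, had the smallest adjusted p among these falls in LNCaP (log2 -2.71, adjusted p = 3.08e-07) and C4-2B (log2 -2.15, adjusted p = 1.21e-05). TAF1D, a subunit of the promoter selectivity factor, rose in LNCaP (log2 1.57, adjusted p = 1.64e-08) and C4-2B (log2 1.7, adjusted p = 9.9e-07). Of 47 further small subunit factors, 17 fell (36.2%) and 5 rose (10.6%) in LNCaP and 16 fell (34%) and 3 rose (6.38%) in C4-2B. UTP25 (log2 -1.02, adjusted p = 1.9e-08 in LNCaP and log2 -0.77, adjusted p = 6.22e-05 in C4-2B) and DCAF13 (log2 -0.97, adjusted p = 4.05e-07 in LNCaP and log2 -0.92, adjusted p = 9.85e-05 in C4-2B) were among the falls and the kinase RIOK2 (log2 0.69, adjusted p = 1.1e-05 in LNCaP and log2 1.01, adjusted p = 8.59e-06 in C4-2B) among the rises. Of 52 further large subunit factors, 18 fell (34.6%) and 9 rose (17.3%) in LNCaP and 10 fell (19.2%) and 7 rose (13.5%) in C4-2B, with medians of -0.1 in both lines. The share that fell in C4-2B was close to that of all genes. GTPBP4 fell (log2 -0.67, adjusted p = 1.12e-06 in LNCaP and log2 -0.56, adjusted p = 0.00372 in C4-2B), and ZNF622, which acts on cytoplasmic large subunits, rose (log2 1.14, adjusted p = 1.25e-08 in LNCaP and log2 0.77, adjusted p = 0.000184 in C4-2B). With the knockdown without TG, 6 of these small subunit factors (12.8%) fell and 1 rose in LNCaP and 5 (10.6%) fell and 2 rose in C4-2B. Of the large subunit factors 7 (13.5%) fell and 0 rose in LNCaP and 6 (11.5%) fell and 1 rose in C4-2B. Of all genes 9.73% fell in LNCaP and 8.14% in C4-2B, so these shares were near the background. TCOF1, treacle, a partner of UBTF, fell with the knockdown in LNCaP (log2 -0.7, adjusted p = 0.000283) and C4-2B (log2 -1.54, adjusted p = 7.7e-05), and HEATR1, a UTP-A subunit, rose (log2 0.54, adjusted p = 0.00705 in LNCaP and log2 0.67, adjusted p = 0.013 in C4-2B).

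MYC, the transcription factor whose motif is marked in the promoters, fell with TG and was not called with the knockdown. It was at 28.4, 30.5, 25.6 and 26.5 CPM in TG-treated and 162, 175, 185 and 161 CPM in untreated siCTRL LNCaP cells. In C4-2B MYC was at 40.9, 36.1, 24.2 and 37 CPM with TG and 122, 131, 173 and 165 CPM without. The groups did not overlap and MYC fell in LNCaP (log2 -2.62, adjusted p = 7.72e-10) and C4-2B (log2 -2.1, adjusted p = 0.000143). With the knockdown without TG it was at 119, 139, 217 and 181 CPM in siMOCOS LNCaP cells (log2 -0.08, adjusted p = 0.767) and 60.9, 69.5, 183 and 155 CPM in siMOCOS C4-2B cells (log2 -0.34, adjusted p = 0.529). In both lines columns 1 and 2 were below every untreated siCTRL library, column 3 was above all of them and column 4 lay within their range. No test of MYC from 1 pair of columns is given, so the pooled result does not show that MYC was unchanged in columns 1 and 2. Cycling markers fell with TG as well, 8 of 12 in LNCaP and 6 of 12 in C4-2B, with summed levels between 611 and 660 CPM in TG-treated and 1087 and 1161 CPM in untreated siCTRL LNCaP cells, and between 823 and 983 CPM in TG-treated and 1373 and 1518 CPM in untreated siCTRL C4-2B cells. Of 12 tested genes of the MYC network, MYC included, 5 (41.7%) fell and 1 (8.33%) rose with TG in LNCaP and 4 (33.3%) fell and 1 (8.33%) rose in C4-2B, with medians of -0.22 and -0.23. Of all genes 25.1% fell and 24.6% rose in LNCaP, and 19.3% fell and 21.2% rose in C4-2B. MNT was among the falls and MXD1 was the rise in both lines, and 12 genes are too few to set apart from these shares. Of 6 genes that tie ribosome assembly to p53, 2 (33.3%) fell and 3 (50%) rose in LNCaP and 1 (16.7%) fell and 3 (50%) rose in C4-2B, with a median of 0.46 in both, counts too small to set against the shares of all genes. The part of MYC and of cell cycling in the members' falls was not tested. By promoter, CACGTG was in the window of 6 of 21 members that fell with TG in siCTRL LNCaP cells, 2 of 3 that rose and 8 of 11 not called, and in 4 of 16, 1 of 1 and 11 of 18 in C4-2B. In both lines members that fell with TG thus held it less often than members not called, a difference that was not tested. For the knockdown without TG it was in 3 of 8 members that fell and 13 of 27 not called in LNCaP, and in 7 of 11 and 9 of 24 in C4-2B.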

How the data were processed

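RNA-seq of 32 libraries was analysed from 1 merged table. Per the submitters' processing notes, the tools were Salmon 1.5.2, STAR 2.6.1d, FastQC 0.11.9, Trim Galore 0.6.7 and cutadapt 3.4, with build hg38. The deposited values are the authors' estimated counts, scaled by transcript length and not whole, and were rounded. No source used here gives the annotation. Library totals of 7507226 to 27088570 counts limit precision, and the tests cover the spread between libraries of a group. In siMOCOS groups this mixes the spread within and between the pairs of knockdown columns. Knockdown p-values take these columns as independent replicates and so do not measure replicate spread alone. The groups of a line share their estimate of spread, so this mixture enters its other tests too. A test from a single pair of columns has only that pair as knockdown libraries.

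Each line's 16 libraries were fitted together with edgeR 4.0.16 (R 4.3.3; filterByExpr, TMM, quasi-likelihood test, Benjamini-Hochberg adjustment over all genes tested), so its 4 groups share 1 estimate of spread per gene. Lines were compared in a fit of all 32 libraries, whose TMM factors also scale the CPM values. SE is the unshrunken log2 fold change over the square root of F, and printed changes are shrunken. The fit was tested on simulated counts with the same dispersion for every gene. These held no split between knockdown columns and no GC trend, so that test does not cover either.

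Members and lists were chosen with earlier results of these data known. Per-library values are given for NOP56, FBL, DKC1, NCL, NPM1, POLR1A, POLR1B, UBTF, RRN3, NOP2, PES1 and the 4 greatest called rises and falls per comparison within a line (3 for line differences) with a mean of at least 5 CPM. Other members whose values are printed were chosen after their values were seen. Alternatives were DESeq2 1.42.0, no filter, limma 3.58.1 voom, a GC and length correction, TMM without members and ribosomal protein genes, a replicate block, a block by pair of knockdown columns, 1 fit of all libraries, and leaving out single libraries or pairs of knockdown columns. Part of the epithelial marker list is not reported here, so its level as a whole is not shown.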

Additional observations from a re-analysis of the deposited data

Results flagged for a closer look

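In 336 groups of 4 libraries, 1 per member and group, the highest and lowest library was compared with the others. In 16 the gap to the nearest, as a share of the group's range, was above Dixon's 95% critical value for 4 samples, and chance gives about 1 in 20 groups.

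Among TG-treated siCTRL C4-2B libraries, replicate 3 stood apart for POLR1A at 60.4 CPM (the others 35.8 to 37.8 CPM), NOP14 at 195 CPM (161 to 166 CPM), NOC2L at 83.6 CPM (135 to 136 CPM) and GNL3 at 433 CPM (496 to 508 CPM), and replicate 2 for GAR1 at 60 CPM (65.9 to 67.1 CPM). Among untreated siCTRL C4-2B libraries, replicate 2 stood apart for UBTF at 234 CPM (202 to 205 CPM) and NOP2 at 95.9 CPM (132 to 136 CPM), and replicate 1 for NIP7 at 62.6 CPM (49 to 50.4 CPM). In siMOCOS C4-2B cells it was column 4, for POLR1B at 56.9 CPM and POLR1C at 44.9 CPM (40.5 to 41.1 CPM).

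In LNCaP, siMOCOS column 4 stood apart for UTP20 at 72 CPM (58.3 to 59.5 CPM) and UTP4 at 60.1 CPM (39.2 to 41.6 CPM), and column 1 for BOP1 at 10.4 CPM (16 to 16.8 CPM). With TG, column 4 stood apart for POLR1C at 16.7 CPM (20.2 to 20.6 CPM) and column 3 for UBTF at 66.2 CPM (75.8 to 77.7 CPM). In untreated siCTRL LNCaP cells replicate 3 stood apart for DDX10 at 68.9 CPM (85.1 to 87.8 CPM). For WDR75 the TG response of siCTRL cells differed between the lines by -0.72 on the log2 scale, LNCaP minus C4-2B, tested as an interaction in the fit of all libraries.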

How the results depend on the processing

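No call of a member changed direction under any alternative. Of the calls, those made under every alternative numbered 22 of 29 (LNCaP) and 10 of 19 (C4-2B) for TG in siCTRL cells, 22 of 28 and 9 of 20 for TG in siMOCOS cells, 2 of 10 (LYAR and NPM1) and 4 of 12 (FBL, POLR1E, LYAR and NOP14) for the knockdown without TG, 3 of 13 (LYAR, NOP14 and POLR1E) and 4 of 8 (POLR1E, FBL, LYAR and UBTF) with TG, and 8 of 12 for the untreated lines. The cause of the changes below was not tested.

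With TG in siCTRL C4-2B cells 1 member was called higher, against 2 with the GC and length correction, 2 with the other TMM set and 4 with all 32 libraries in 1 fit. In siMOCOS C4-2B cells 5 were higher, against 3 with the correction and 3 without columns 3 and 4, and in siCTRL LNCaP cells 5, against 3 with the correction. For the knockdown without TG, 12 were lower in C4-2B, against 7 without columns 1 and 2. In LNCaP 10 were lower, against 5 with the correction, 5 with all libraries and 6 without columns 1 and 2, and 0 were higher, against 1 by DESeq2 and 4 without columns 1 and 2. With TG, 8 were lower in C4-2B, against 13 with all libraries and 13 without columns 3 and 4, and 0 were higher, against 1 without columns 3 and 4. In LNCaP 9 were lower, against 5 with the correction and 16 without columns 3 and 4, and 4 were higher, against 1 with all libraries and 0 without columns 1 and 2.

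With 1 library left out, members called higher with TG in siCTRL C4-2B cells numbered 0 (without siCTRL replicate 3) to 3 (without siCTRL replicate 2), and in siMOCOS C4-2B cells 3 to 6. Members lower with the knockdown without TG numbered 5 to 10 in C4-2B (5 without siCTRL replicate 1 or siMOCOS replicate 2) and 4 to 10 in LNCaP (4 without siMOCOS replicate 2). With TG they numbered 5 to 9 in C4-2B (5 without siCTRL TG replicate 1 or 2), and members higher numbered 0 to 1 in C4-2B and 1 to 4 in LNCaP (1 without siCTRL TG replicate 3 or 4 or siMOCOS TG replicate 1). Members lower in untreated LNCaP than C4-2B cells numbered 3 to 13, and those with a lower TG response 0 to 1. DESeq2 called 10 members lower in untreated LNCaP than C4-2B cells, against 7.

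Deviations of same-numbered TG and untreated siCTRL libraries had correlations of 0.019, -0.313, -0.348 and 0.152 in C4-2B and -0.059, 0.21, -0.066 and 0.034 in LNCaP. The highest in C4-2B, 0.474, was between untreated replicate 2 and TG replicate 3. Deviations also went with GC content, so this check cannot exclude a pairing by number. A replicate block gave 2 higher and 14 lower members in C4-2B (2 and 15 with the correction) and 7 and 24 in LNCaP (4 and 26). With the pair of siMOCOS columns as the block, chosen after seeing the data, members called with TG in siMOCOS cells were 7 higher and 24 lower in LNCaP, against 7 and 21, and 6 and 18 in C4-2B, against 5 and 15, and no call was lost. Shares of all genes were not taken from the fits with a block. No paired analysis was possible for the knockdown against siCTRL cells because its columns carry no number from the labels. GC content correlated with a library's deviation by up to -0.53 (untreated siCTRL C4-2B replicate 1), and 93.2% of genes had a GC value.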
